A study of Arabidopsis thaliana with 12 samples.

Results

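The genotype difference in the response to 24 h of cold was examined in seedlings of Arabidopsis thaliana, as the change from 0 h to 24 h at 4 °C in the mutant line cbfs-1 minus the same change in the wild type Col. It was taken on the log2 scale from group means of log2(value + 1), where a value is the normalised read count of a gene in a library, and covered the 20476 of 24616 listed genes with 2 or more of the 8 libraries of the contrast at a value of 10 or above. Genes just inside this level, AT4G20920 and GSTU21, had a second-highest value of 10.3, and the miRNA gene MIR160c and AT2G21200, just outside it, had 9.97. A negative difference means that a gene increased less, or decreased more, in cbfs-1 than in wild type.

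The 4 groups of the contrast were cbfs-1 after 24 h at 4 °C, wild type after 24 h at 4 °C, cbfs-1 at 0 h and wild type at 0 h, with 2 libraries each. All plants were 14 days old, grew on MS medium in long days at 22 °C and were sampled as seedlings. A further 4 libraries, 2 of each genotype after 3 h of cold, entered the fit and a separate check. The cbfs-1 material is a single line, and the labels do not describe its lesion. Seedlings kept at 22 °C for a further 24 h were not analysed here. Whether the libraries of a group came from separate plants is not stated in the labels. The p-values therefore measure only the variation among these samples, and that may be technical.

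CBF1, CBF2 and CBF3, also called DREB1B, DREB1C and DREB1A, are transcription factors of the AP2/ERF family that are made within hours of chilling. They bind the C-repeat or dehydration-responsive element, a promoter motif with the core CCGAC, and activate cold-regulated genes of the COR, KIN and LTI groups, whose products protect membranes, chloroplasts and proteins during freezing. Other cold-induced genes act beside this pathway.

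Read totals recovered from the values were 16849042 to 22800552 per library, and 3 reads, taken as the detection floor, corresponded to values of 2.46 to 3.28. Across genes, which are not independent replicates, Pearson's r between the libraries of a group was 0.984 to 0.991. Counting noise did not account for the spread within any of the 6 groups, with a chi-square of 5.61 to 21.5 per degree of freedom. The light-harvesting gene LHCB1.3 stood between 300754 and 369246 at 0 h and between 325181 and 409341 at 24 h, and 12 of 12 root markers were detected. Of 7 genes in the floral and seed list 1 reached the level of the rule. It was FT, a flowering signal gene outside the planned markers of floral and seed tissue. In whole-seedling RNA, fewer cells of a type and less RNA per cell cannot be told apart.

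Libraries with the same replicate number deviated together within a time. The correlation of their deviations from the group means was 0.255 between cbfs-1 and wild type at 24 h, 0.576 at 3 h and 0.497 at 0 h. The replicate number was therefore taken to pair libraries within a time, a hint that the data give and the labels do not, and each result is given from the main test, a limma fit of the 6 group means without a block, and from an alternative to it, the same fit with a replicate block by time. Most genes named below passed only the alternative. Adjusted p-values are Benjamini-Hochberg values over the 20476 genes, and a gene passed a test at a value below 0.05. The 2 wild type libraries at 24 h differed for the genes described here, and which of the 2 stood apart cannot be told. In wild type at 24 h, replicate 1 was above replicate 2 in 390 of the 432 genes with a lower response in cbfs-1 in the blocked fit (90.3%, against 52.0% of all tested genes) and in 18 of 18 CBF targets. In cbfs-1 at 24 h replicate 1 was above replicate 2 in 301 of the 432 genes (69.7%, against 49.3%) and in 13 of 18 targets. Of 13 glucosinolate genes, replicate 1 was above replicate 2 at 24 h in 1 in wild type (7.69%) and in 5 in cbfs-1 (38.5%).

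In the blocked fit, 17 of 18 CBF target genes had a lower response in cbfs-1 and 10 of 13 glucosinolate genes a higher one. Without the block 1 gene of each list passed, and both lists were chosen with earlier results of these data known. The cold-regulated gene KIN2 increased less in cbfs-1 (difference -1.53, SE 0.16, adjusted p = 0.0322) and CYP79B3, an enzyme gene of indole glucosinolate synthesis, decreased less (difference 1.66, SE 0.13, adjusted p = 0.00503). These 2 genes, 0.00977% of those tested (0.00488% in each direction), passed without the block, where 956 genes (4.67%) had an unadjusted p below 0.05. With the block by time 711 genes passed (3.47%), of which 432 had a lower response (2.11%) and 279 a higher one (1.36%) in cbfs-1. A difference of at least 2-fold was reached by 137 of the lower (31.71%) and 30 of the higher genes (10.75%), against 2.36% of all tested genes. The lower and higher genes were chosen on this same difference. Without wild type 24 h replicate 1 the blocked counts were 263 lower and 277 higher, and without replicate 2 they were 633 and 331. In the 8 libraries alone KIN2 and CYP79B3 each had an adjusted p of 0.0579. DESeq2 on the recovered reads, without a block, called 65 lower and 19 higher genes, and all of them were among the blocked calls.

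**Figure D1:**
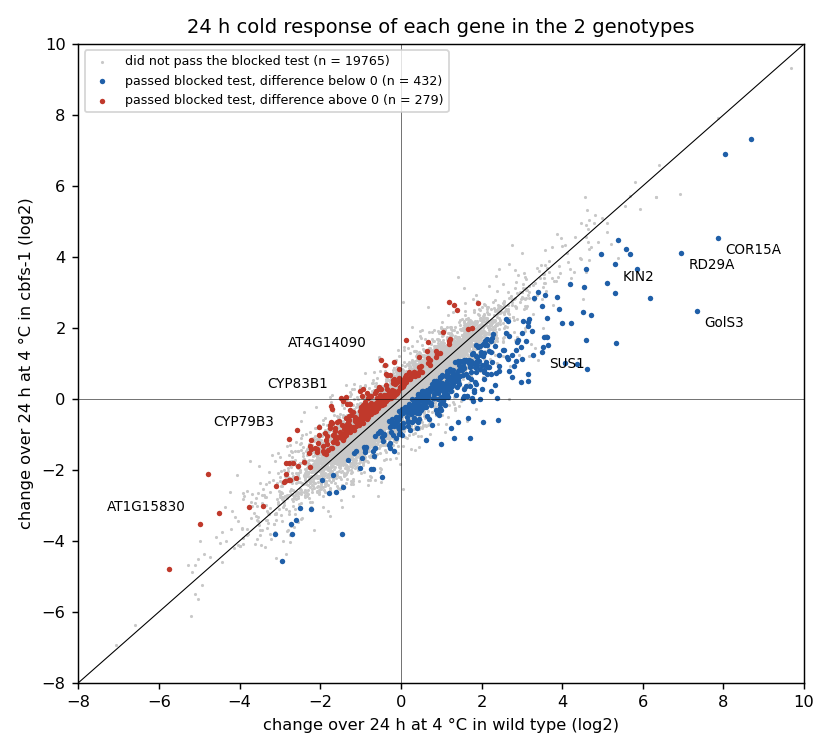
Change over 24 h at 4 °C in cbfs-1 (y axis, log2) against the change in wild type (x axis, log2) for the 20476 tested genes, with the line of equal change. Blue points are the 432 genes whose response was lower and red points the 279 genes whose response was higher in cbfs-1 in the blocked test, and grey points did not pass it. GolS3, COR15A, RD29A, KIN2 and SUS1 lie below the line at large wild type increases, and CYP79B3, CYP83B1, AT4G14090 and AT1G15830 lie above it.

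Most genes with a lower response increased in wild type by their estimates. The wild type change is a part of the difference on which these genes were chosen. Of the 432, 365 had a wild type change above 0 (84.5%, against 49.9% of all tested genes), and in 276 of them the cbfs-1 change was above 0 too. A further 89 went up in wild type and down in cbfs-1 by their estimates, and 67 went down in both. Their median change over 24 h was 0.27 in cbfs-1 and 1.08 in wild type. Of the 279 genes with a higher response, 164 went down in both genotypes, 62 went up in cbfs-1 and down in wild type, and 53 went up in both, with a median change of -0.17 in cbfs-1 and -0.74 in wild type. At 24 h both cbfs-1 libraries were below both wild type libraries in 387 of the 432 lower genes (89.6%, against 21.3% of all tested genes) and above them in 251 of the 279 higher genes (90.0%, against 22.0%). These counts use the same libraries as the test and are a description.

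Of the 3 CBF genes, 2 had a lower response in cbfs-1 with the block and 0 without it (1 at an unadjusted p below 0.05), while the level of CBF3 was higher in cbfs-1 at both times. CBF3 (AT4G25480) stood at 893 and 799 in cbfs-1 and at 404 and 180 in wild type after 24 h. At 0 h it stood at 175 and 138 in cbfs-1, against 15.3 and 7.59 in wild type. The mutant libraries were thus above the wild type libraries at both times, and at 0 h by more (3.72, SE 0.36, adjusted p = 0.00795, blocked 4.40e-07) than at 24 h (1.64, adjusted p = 0.0879, blocked 6.66e-05). Its difference in response was -2.08 (SE 0.51, adjusted p = 0.447, blocked SE 0.26 and adjusted p = 0.000483). CBF2 (AT4G25470) stood at 941 and 448 in cbfs-1, against 569 and 239 in wild type after 24 h, and at 63.1 and 12.3 in cbfs-1, against 24.0 and 2.17 in wild type at 0 h. For CBF2 the wild type value of 2.17 was under the floor of that library (3.25), so the size of the difference is uncertain. Its difference was -0.90 (SE 1.34, adjusted p = 1, blocked 0.0177), it changed sign without some single 0 h libraries, and it passed under 7 of 14 settings with the block. CBF1 (AT4G25490) stood at 78.7 and 38.1 in cbfs-1, against 69.8 and 22.4 in wild type after 24 h, and did not pass (difference 0.54, SE 0.78, blocked adjusted p = 0.532). It was under the floor in all 4 libraries at 0 h, so no fold is given for it. Transcripts of all 3 genes were thus counted in the mutant libraries, and these counts alone do not identify the lesion of the line. Because the CBF genes are similar tandem copies, how reads were divided between them is uncertain.

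Nearly all CBF target genes had a lower response in cbfs-1 with the block. Of 18 tested members of the target list, 17 had a lower response in cbfs-1 and 0 a higher one with the block, 1 passed without it, and the median difference was -1.71, against 0.01 over all tested genes. The median change over 24 h was 2.17 in cbfs-1 and 4.08 in wild type, and 14 of the 18 passed as increased over 24 h in cbfs-1 and 17 in wild type (25.1% and 25.9% of all tested genes did). The exception was COR413-PM2, which stood at 570 and 524 in cbfs-1 and at 629 and 521 in wild type after 24 h and decreased over 24 h in both genotypes (difference -0.14, SE 0.14, blocked adjusted p = 0.518).

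KIN2 (AT5G15970), also called COR6.6, encodes a small hydrophilic cold-induced protein. It stood at 9369 and 9594 in cbfs-1 and at 69314 and 58559 in wild type after 24 h, and at 717 and 651 in cbfs-1 and 1502 and 1688 in wild type at 0 h. The mutant libraries were below the wild type libraries at both times, by -2.75 at 24 h and by -1.22 at 0 h, and the difference of -1.53 is what remained between these gaps. Its blocked adjusted p was 3.95e-06. Without the block the call was kept without either wild type 24 h library (0.0484 and 0.00935) and lost without any 1 of the other 6 libraries, with adjusted p-values of 0.232 and 0.0969 without wild type 0 h replicate 1 or 2, 0.208 and 0.0954 without cbfs-1 0 h replicate 1 or 2, and 0.336 and 0.288 without cbfs-1 24 h replicate 1 or 2. Its neighbour and homologue KIN1 (AT5G15960) stood at 1055 and 988 in cbfs-1, against 8898 and 7230 in wild type after 24 h (difference -1.38, SE 0.22, adjusted p = 0.114, blocked 3.16e-06). How reads were divided between KIN1 and KIN2 is uncertain.

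GolS3 (AT1G09350), a galactinol synthase gene at the entry to raffinose synthesis, had the largest negative difference. It stood at 482 and 388 in cbfs-1 and at 18836 and 6747 in wild type after 24 h, and between 57.5 and 97.2 in all 4 libraries at 0 h. The groups were apart at 24 h, 26.0-fold on the log2(value + 1) scale, and overlapped at 0 h. The difference was -4.87 (SE 0.60, adjusted p = 0.0725, blocked SE 0.28 and adjusted p = 9.86e-07). COR15A (AT2G42540), whose product protects chloroplast membranes during freezing, stood at 3273 and 3092 in cbfs-1, against 91302 and 71501 in wild type after 24 h, and at 222 and 83.3 in cbfs-1, against 443 and 270 in wild type at 0 h (difference -3.33, SE 0.53, adjusted p = 0.114, blocked 2.64e-07). Its paralog COR15B stood at 5253 and 5500 in cbfs-1, against 30702 and 27390 in wild type after 24 h, and its difference was smaller (-1.39, SE 0.52, adjusted p = 0.942, blocked 2.56e-06). COR15B had the larger increase over 24 h in cbfs-1, 7.31 against 4.54 for COR15A, while the wild type changes were 8.70 and 7.86.

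RD29A (AT5G52310), also called LTI78, a much used reporter of cold and drought, stood at 11588 and 9031 in cbfs-1 and at 194697 and 107678 in wild type after 24 h. At 0 h it stood at 682 and 514 in cbfs-1, against 1146 and 1184 in wild type. All mutant libraries were thus below the wild type libraries of their time, and the difference was -2.85 (SE 0.44, adjusted p = 0.114, blocked 6.11e-07). The dehydrin genes, which encode protective proteins that bind membranes in dehydrated cells, followed with LTI30 at -2.20 (blocked adjusted p = 9.77e-06), COR47 at -2.08 (2.64e-07) and ERD10 at -1.40 (1.35e-06). LTI30 stood at 4499 and 3239 in cbfs-1, against 53009 and 28308 in wild type after 24 h. COR47 stood at 23071 and 16538 in cbfs-1, against 123817 and 69766 in wild type after 24 h. Both were apart between the genotypes at 24 h, and neither passed without the block (adjusted p = 0.142 and 0.131).

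The COR413 genes encode multispanning membrane proteins, and their members differed. COR413IM1, of the chloroplast inner membrane, stood at 1077 and 897 in cbfs-1, against 7587 and 5751 in wild type after 24 h (difference -2.93, blocked adjusted p = 9.72e-09). COR413-PM1, of the plasma membrane, stood at 7036 and 6185 in cbfs-1, against 43142 and 28498 in wild type after 24 h (-2.07, 6.41e-07). COR413IM2 had a difference of -0.63 (0.00302), and COR413-PM2 is the member that did not pass. Transcription factor genes of the list were RAP2.1, a repressor of the same element, at 89.5 and 111 in cbfs-1 and 638 and 382 in wild type after 24 h (difference -2.49, SE 0.35, adjusted p = 0.0932, blocked 0.000504), and RAP2.6 (-1.63, blocked 0.00305). LEA14 (-1.79), ERD4 (-0.87) and ERD7 (-0.84) completed the targets that passed with the block. All 17 passed under each of the 14 settings with the block.

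Promoters are shown because the CCGAC core is the known CBF binding element. GolS3, COR15A and RD29A were chosen as targets with large differences that hold it, and KIN2 and CYP79B3 as the pair that passed without the block. The sequences are the 250 bases before the annotated start in the TAIR10.1 assembly of RefSeq, written along the gene's strand, with CCGAC or its reverse complement GTCGG in capitals. They lie at chr1:3019389-3019638 on the plus strand for GolS3, chr2:17712331-17712580 on the minus strand for COR15A, chr5:21240467-21240716 on the plus strand for RD29A, chr5:5211469-5211718 on the plus strand for KIN2 and chr2:9488163-9488412 on the plus strand for CYP79B3.
GolS3: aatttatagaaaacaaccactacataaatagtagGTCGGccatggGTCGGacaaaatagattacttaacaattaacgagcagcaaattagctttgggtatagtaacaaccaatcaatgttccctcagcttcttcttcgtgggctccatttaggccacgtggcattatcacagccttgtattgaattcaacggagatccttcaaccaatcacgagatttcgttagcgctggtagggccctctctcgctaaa
COR15A: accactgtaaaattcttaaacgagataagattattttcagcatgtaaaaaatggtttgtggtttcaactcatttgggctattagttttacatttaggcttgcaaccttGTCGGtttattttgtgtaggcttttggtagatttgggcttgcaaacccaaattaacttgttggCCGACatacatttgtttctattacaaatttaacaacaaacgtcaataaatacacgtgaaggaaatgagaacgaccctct
RD29A: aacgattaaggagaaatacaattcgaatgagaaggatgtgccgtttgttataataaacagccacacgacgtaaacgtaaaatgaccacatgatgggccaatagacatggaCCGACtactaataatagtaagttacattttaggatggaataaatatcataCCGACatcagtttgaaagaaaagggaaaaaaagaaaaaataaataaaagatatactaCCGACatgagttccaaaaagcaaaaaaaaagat
KIN2: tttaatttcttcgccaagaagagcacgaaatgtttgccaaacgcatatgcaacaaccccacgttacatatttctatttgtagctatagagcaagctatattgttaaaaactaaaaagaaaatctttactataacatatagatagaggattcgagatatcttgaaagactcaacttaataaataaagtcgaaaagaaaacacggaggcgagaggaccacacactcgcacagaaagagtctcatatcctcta
CYP79B3: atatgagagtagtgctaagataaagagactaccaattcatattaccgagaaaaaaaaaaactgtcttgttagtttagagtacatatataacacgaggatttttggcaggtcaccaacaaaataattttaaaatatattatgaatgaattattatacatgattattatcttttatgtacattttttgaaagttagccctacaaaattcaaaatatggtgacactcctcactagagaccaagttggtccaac
RD29A held 3 cores, 140, 90 and 33 bases before the start. GolS3 held 2, both as GTCGG at 216 and 205 bases, and COR15A held 1 in each orientation at 79 and 142 bases. KIN2 and CYP79B3 held none in this window, as did the targets KIN1 and RAP2.1, which says nothing about binding elsewhere.

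The core was counted on either strand of the same window in all genes whose start is annotated. It was present in 123 of 430 genes with a lower response (28.6%), in 23 of 277 with a higher response (8.30%) and in 2596 of 20244 tested genes (12.8%). Of the 18 CBF targets 6 held it, and of 13 glucosinolate genes 1 did. The abscisic acid response element, searched as ACGTGGC or ACGTGTC, was present in 11.6% of the lower, 5.42% of the higher and 7.26% of all tested genes. The evening element AAAATATCT was present in 5.35%, 2.53% and 2.50%, and the G-box CACGTG, which can overlap the abscisic acid element, in 11.2%, 10.8% and 7.34%. These shares are descriptions, and a match is not a binding site.

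**Figure D2:**
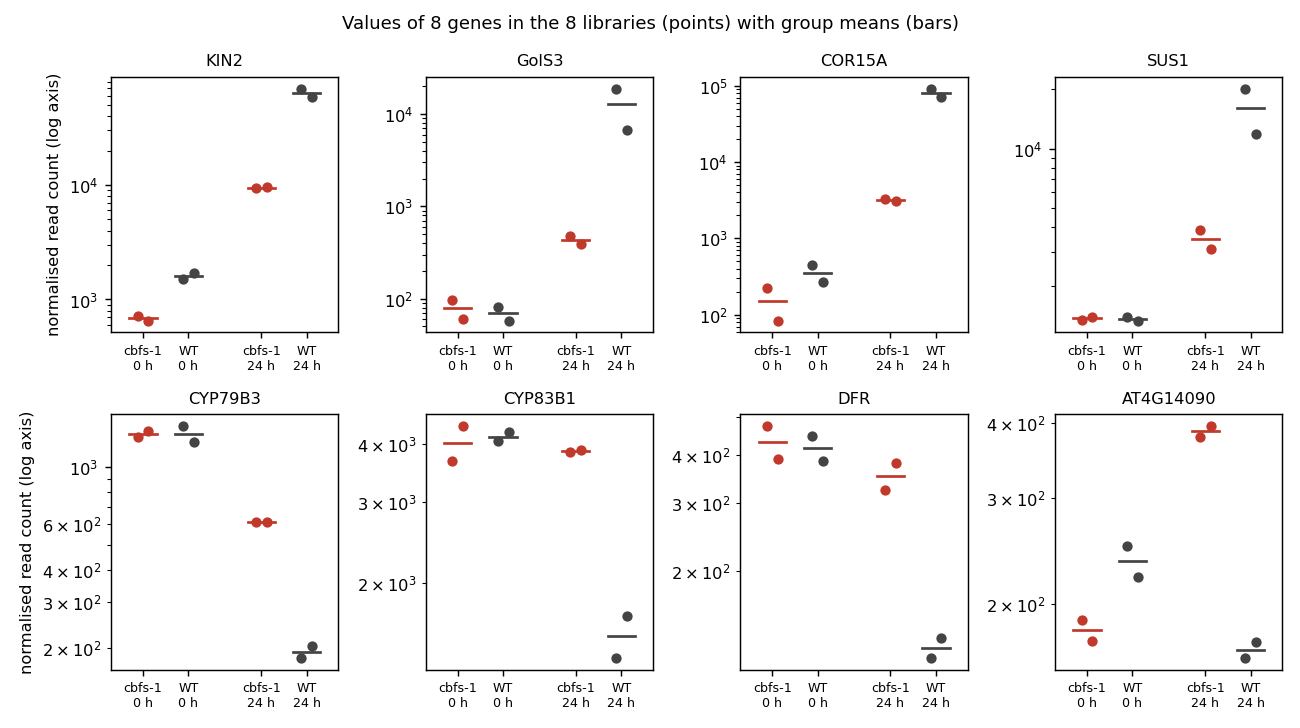
Normalised read counts (log axis) of 8 genes in the 8 libraries of the contrast, with cbfs-1 in red and wild type in dark grey at 0 h and 24 h. Points are libraries and bars group means of 2 libraries. KIN2, GolS3, COR15A and SUS1 were lower in cbfs-1 than in wild type after 24 h, and CYP79B3, CYP83B1, DFR and AT4G14090 were higher.

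Genes of sugar and osmolyte metabolism, which supply compatible solutes during cold, were lower in part. Of 16 members, 7 had a lower and 1 a higher response with the block, 0 passed without it (4 at an unadjusted p below 0.05), and the median difference was -0.38. SUS1 (AT5G20830), a sucrose synthase gene, stood at 3857 and 3074 in cbfs-1 and at 20179 and 11898 in wild type after 24 h, and between 1335 and 1391 in all 4 libraries at 0 h. The groups overlapped at 0 h and were apart at 24 h (difference -2.18, SE 0.30, adjusted p = 0.0932, blocked 2.64e-07). GolS1, a second galactinol synthase gene, stood at 1076 and 1006 in cbfs-1, against 2758 and 1884 in wild type after 24 h (blocked adjusted p of the difference = 0.000551, 2.19-fold at 24 h). P5CS2, of proline synthesis, had a difference of -0.98 (0.000848), SPS2F, a sucrose phosphate synthase gene, of -0.85 (0.00397), and SEX1, which starts starch breakdown, of -0.73 (0.000173). The raffinose synthase gene RS5 (-0.63, 0.0481) and the sugar transporter gene ERD6 (-0.37, 0.0125) passed with the block under 7 and 8 of the 14 settings. SWEET17, a vacuolar fructose carrier gene, had the higher response (0.47, blocked 0.0228, 7 of 14 settings). GolS2 (-0.50, blocked 0.623) and DIN10 (0.25, 0.268) did not pass.

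Genes outside the lists made up much of the top of the lower group. AT1G16850, an uncharacterised gene, stood at 259 and 254 in cbfs-1 and at 5765 and 3098 in wild type after 24 h, and at 36.2 and 34.1 in cbfs-1, against 61.2 and 53.2 in wild type at 0 h (difference -3.36, SE 0.43, adjusted p = 0.0725, blocked 2.02e-05). AT4G30830, a DUF593 gene, stood at 21.6 and 18.1 in cbfs-1 and at 455 and 242 in wild type after 24 h, and between 8.28 and 16.3 at 0 h (-3.75, SE 0.55, adjusted p = 0.0951, blocked 0.00013). Both increased in wild type and were apart between the genotypes at 24 h. The receptor-like protein gene RLP33 stood at 80.8 and 89.7 in cbfs-1, against 816 and 460 in wild type after 24 h (-3.06, blocked 0.000342). The LysM-domain gene AT4G25433 (-3.38, 0.000778), the GDSL lipase gene AT2G24560 (-3.77, 0.0208), the protein kinase gene CIPK25 (-2.44, 0.000183), the chitinase family gene AT2G43620 (-2.36, 4.28e-05) and the uncharacterised AT1G68500 (-2.35, 0.00113) followed. AT2G24560 lost its blocked call without the first pair of libraries at 24 h (0.103 without wild type replicate 1 and 0.0853 without cbfs-1 replicate 1) and without the second pair at 0 h (0.17 and 0.184).

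Glucosinolates are sulfur-rich defence compounds of the Brassicaceae, and their genes had the clearest higher response. Of 13 members, 10 had a higher and 0 a lower response in cbfs-1 with the block, 1 passed without it, and the median difference was 0.53. The median change over 24 h was -0.05 in cbfs-1 and -0.62 in wild type, and 2 of the 13 passed as decreased in cbfs-1 and 9 in wild type (23.4% and 24.5% of all tested genes did). CYP79B3 (AT2G22330), which converts tryptophan to indole-3-acetaldoxime, stood at 611 and 614 in cbfs-1 and at 183 and 205 in wild type after 24 h, and at 1297 and 1373 in cbfs-1 and 1435 and 1248 in wild type at 0 h. The groups overlapped at 0 h and were apart at 24 h, 3.15-fold. Its blocked adjusted p was 1.35e-06, and without the block its call was lost without cbfs-1 0 h replicate 1 (0.0591), cbfs-1 24 h replicate 1 (0.0709) or cbfs-1 24 h replicate 2 (0.0738).

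Other genes of the indole branch passed with the block in part. CYP79B2 (AT4G39950), its paralog in the same step, stood at 1859 and 1855 in cbfs-1, against 600 and 750 in wild type after 24 h, and at 1959 and 1717 in cbfs-1, against 2347 and 1523 in wild type at 0 h (difference 1.51, SE 0.31, adjusted p = 0.225, blocked 2.24e-05). CYP83B1 (AT4G31500), which acts on the oxime, stood at 3841 and 3884 in cbfs-1, against 1371 and 1691 in wild type after 24 h, and between 3665 and 4375 in all 4 libraries at 0 h (1.39, SE 0.18, adjusted p = 0.0725, blocked 1.92e-06). In cbfs-1 the levels of both genes at 24 h lay within their 0 h range, whereas in wild type both genes decreased (changes of -1.49 and -1.44, adjusted p = 0.000514 and 3.76e-05). MYB34, an activator of the indole branch, had a difference of 0.73 (blocked 0.00902, 10 of 14 settings). MYB51, another one, did not pass (0.54, 0.127).

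In the branch that starts from methionine, CYP79F2 had a difference of 0.78 (blocked 0.00016), the chain elongation gene MAM3 of 0.52 (0.000637), CYP83A1 of 0.46 (0.000798), BCAT4 of 0.40 (0.00397), MAM1 of 0.31 (0.0151) and the activator gene MYB28 of 0.53 (0.0288). CYP79F2 stood at 827 and 905 in cbfs-1, against 415 and 461 in wild type after 24 h. MAM3 stood at 2551 and 2736 in cbfs-1, against 1543 and 1656 in wild type after 24 h. Both pairs of groups were apart at 24 h. CYP79F2, MAM3 and CYP83A1 passed in all 14 settings with the block, BCAT4 and MAM1 in 12 and MYB28 in 7. MYB29, a second activator of this branch, had a difference of -0.09 (blocked 0.802) and CYP79F1 one of 0.25 (0.0689).

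Some flavonoid genes had a higher response in cbfs-1 with the block. Of 13 flavonoid members, 3 had a higher and 0 a lower response with the block, 0 passed without it (3 at an unadjusted p below 0.05), and the median difference was 0.27. DFR (AT5G42800), the first enzyme committed to anthocyanins, stood at 324 and 380 in cbfs-1 and at 120 and 135 in wild type after 24 h, and between 385 and 474 at 0 h (difference 1.41, SE 0.32, adjusted p = 0.37, blocked 4.28e-05). LDOX (AT4G22880), the next enzyme, stood at 442 and 485 in cbfs-1 and at 164 and 193 in wild type after 24 h, and between 420 and 490 at 0 h (1.43, SE 0.42, adjusted p = 0.642, blocked 0.000184). Both genes decreased over 24 h in wild type (changes of -1.70 and -1.37, adjusted p = 0.000346 and 0.00416). In cbfs-1 their changes were -0.29 and 0.06 (adjusted p = 0.318 and 0.89). More of the list increased than decreased. Without the block 8 of the 13 members passed as increased over 24 h in cbfs-1 and 7 in wild type (25.1% and 25.9% of all tested genes did). As decreased, 0 passed in cbfs-1 and 2 in wild type.

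Some enzyme genes that decorate anthocyanins, chosen after their values were seen, passed with the block too. UF3GT (AT5G54060), a glycosyltransferase gene, stood at 213 and 219 in cbfs-1, against 85.7 and 68.2 in wild type after 24 h, and at 122 and 101 in cbfs-1, against 98.3 and 103 in wild type at 0 h (difference 1.35, SE 0.48, adjusted p = 0.896, blocked 0.00792). AT4G14090, a glucosyltransferase gene outside the list, stood at 379 and 395 in cbfs-1, against 163 and 173 in wild type after 24 h, and at 188 and 174 in cbfs-1, against 250 and 222 in wild type at 0 h (1.58, SE 0.30, adjusted p = 0.196, blocked 5.53e-05). In both genes the cbfs-1 libraries were higher and the wild type libraries lower at 24 h than at 0 h. AT5MAT, an acyltransferase gene, had a difference of 1.52 (blocked 0.000606). The early genes TT4, chalcone synthase, at -0.07 (blocked 0.625) and TT5, chalcone isomerase, at -0.25 (0.168) did not pass, nor did the activator gene PAP1 at 0.82 (0.117).

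Water channel and cell wall genes gave smaller differences. Of 13 plasma membrane aquaporins, 6 had a higher and 1 a lower response with the block, 0 passed without it (1 at an unadjusted p below 0.05), and the median difference was 0.26. PIP2;3 at 0.64 (blocked 0.000984), PIP2;2 at 0.55 (0.000222), PIP1;1 at 0.48 (0.000564) and PIP2;1 at 0.40 (0.00641) were the largest, and PIP2;6 was the lower one (-0.51, 0.00862). PIP2;2 stood at 1121 and 1290 in cbfs-1, against 765 and 920 in wild type after 24 h, and between 5213 and 7191 at 0 h, so it was lower at 24 h in both genotypes. These water channels are close paralogs, and the division of reads between them is uncertain. Of 18 cell wall and elongation genes, 4 had a higher and 1 a lower response, with the expansin gene EXPA8 at 0.97 (0.00225), XTH17 at 0.82 (0.0169), EXPA4 at 0.46 (0.00331) and EXPA1 at 0.37 (0.0363), against XTH24 at -0.58 (0.000483). Without the block 0 of the 18 passed, also at an unadjusted p below 0.05. EXPA8 and XTH24 passed under all 14 blocked settings, EXPA4 under 12, and XTH17 and EXPA1 under 8. Without the block the sign of EXPA1 turned without wild type 24 h replicate 1 (-0.12) and without cbfs-1 24 h replicate 2 (-0.05).

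Root markers had differences above 0 in 11 of 12 members (median 0.25, against 0.26 for the aquaporins), and 0 passed with or without the block (2 at an unadjusted p below 0.05 without it). Their summed level was 3783 and 4421 in cbfs-1 and 3535 and 3400 in wild type after 24 h, and 4731 and 5219 in cbfs-1 and 4724 and 4975 in wild type at 0 h. The part of tissue proportions in the aquaporin, cell wall and glucosinolate results was not tested.

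**Figure D3:**
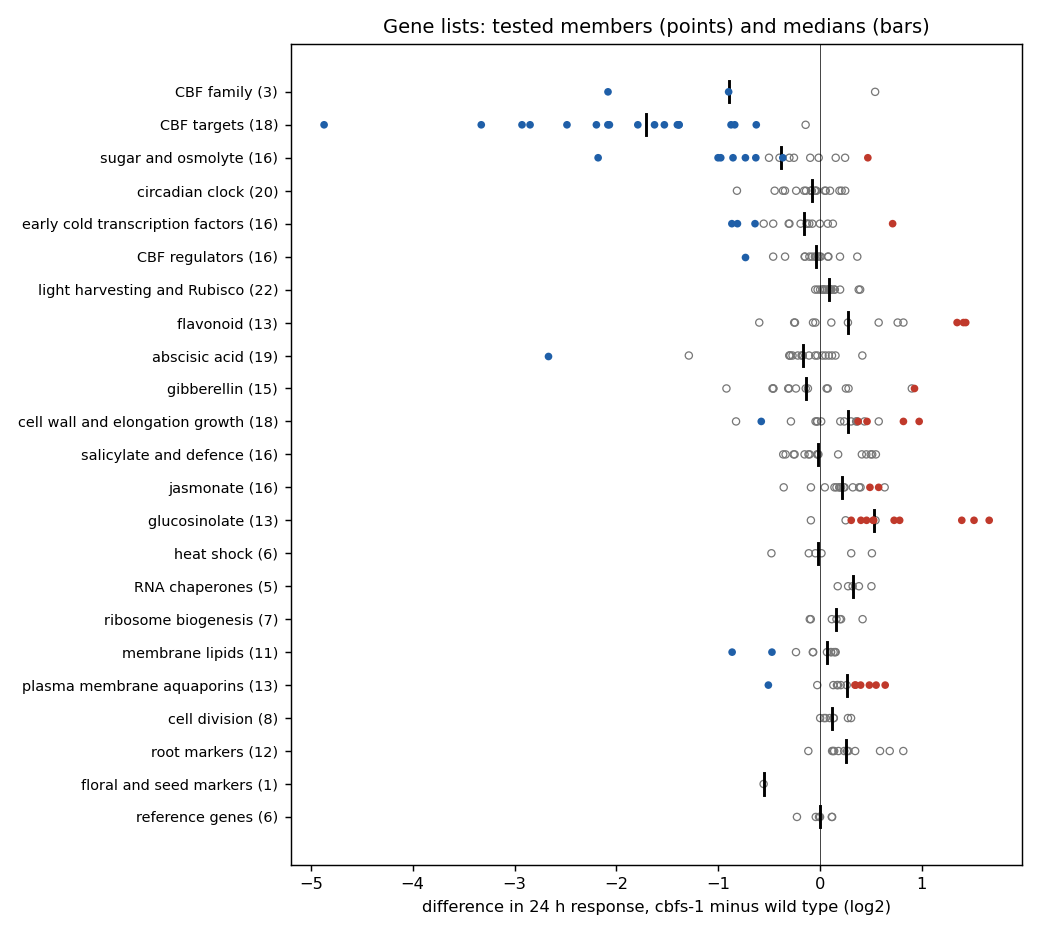
Difference in the 24 h response, cbfs-1 minus wild type (x axis, log2), for the tested members of 23 gene lists, with the number of tested members in brackets. Filled points passed the blocked test, in blue below 0 and in red above 0, open points did not, and bars are list medians. The CBF targets lie furthest to the left with a median of -1.71, and the glucosinolate genes furthest to the right with 0.53.

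Transcription factors of the early cold response gave 3 lower and 1 higher response among 16 members with the block, and 0 without it also at an unadjusted p below 0.05. They were the zinc-finger genes ZAT10 (-0.87, blocked 0.00928) and ZAT6 (-0.81, 0.00677), RAV1 (-0.64, 0.000798) and, in the other direction, ERF6 (0.71, 0.0128). RAV1 passed under all 14 blocked settings, ZAT10 under 12, ZAT6 under 10 and ERF6 under 9. ZAT10 stood at 288 and 260 in cbfs-1, against 399 and 334 in wild type after 24 h, and at 373 and 112 in cbfs-1, against 341 and 65.1 in wild type at 0 h. At 0 h the replicates thus spread more widely than the genotypes, and without the block the signs of ZAT10 and ERF6 turned when some single 0 h libraries were left out. ZAT12 (-0.13, blocked 0.706), another early zinc-finger gene, did not pass. Of 16 regulators of CBF expression 1 had a lower response with the block (2.11% of all tested genes did), and 0 passed without it. The 1 gene was the light-signalling gene PIF3 (-0.74, 0.0136, 8 of 14 settings). Without the block 3 of the 16 had an unadjusted p below 0.05. With the block 15 did not pass, among them ICE1 (0.01, 0.984), which encodes an upstream activator.

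The circadian clock genes gave 0 of 20 calls with the block and, also at an unadjusted p below 0.05, 0 without it. Without the block 12 of the 20 passed as increased over 24 h in each genotype (25.1% of all tested genes in cbfs-1 and 25.9% in wild type). Their median change was 1.47 in cbfs-1 and 1.56 in wild type. Their differences ran from -0.82 to 0.25. CCA1, a morning clock gene, stood at 6108 and 5038 in cbfs-1, against 6846 and 5649 in wild type after 24 h (difference -0.03, SE 0.90, blocked SE 0.07, blocked adjusted p = 0.89). LHY, its partner, stood at 1639 and 7514 in cbfs-1 and at 1592 and 7923 in wild type at 0 h, so its replicates differed far more than its genotypes. For CCA1 the SE was smaller with the block, under a pairing that the labels do not give.

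Hormone lists are set beside shares over all tested genes of 2.11% lower and 1.36% higher with the block, and 0 of their members passed without it (2 gibberellin genes had an unadjusted p below 0.05, and 0 abscisic acid or jasmonate genes). In the abscisic acid list 1 of 19 members had a lower response with the block, RD29B, a gene of desiccation, which stood at 36.6 and 32.6 in cbfs-1 and at 913 and 179 in wild type after 24 h (difference -2.67, SE 1.22, adjusted p = 1, blocked 0.0278). Its wild type libraries lay far apart, and it passed under 8 of 14 blocked settings. Wild type 24 h replicate 1 was above replicate 2 in 18 of the 19 members. In the jasmonate list 2 of 16 had a higher response, AOS, of jasmonate synthesis (0.58, 0.00113), and JAZ9, a repressor gene (0.49, 0.0322, 7 of 14 settings), and in the gibberellin list 1 of 15 did, GA2OX2, which inactivates the hormone (0.92, 0.0382, 9 of 14 settings). The salicylate and defence list gave 0 of 16 calls with the block and 1 unadjusted p below 0.05 without it, with PR1 at -0.34 (blocked 0.837).

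Among the remaining lists, 2 of 11 membrane lipid genes had a lower response with the block, the desaturase genes ADS1 (-0.86, 0.0111) and ADS2 (-0.47, 0.00131). ADS2, a cold-induced gene, stood at 10437 and 8095 in cbfs-1, against 13668 and 9382 in wild type after 24 h, and the groups overlapped. In the 2 fits 0 members passed, and without the block 0 had an unadjusted p below 0.05, among 22 light-harvesting and Rubisco genes (median difference 0.09), 6 heat shock genes (-0.02), 5 RNA chaperone genes (0.32), 7 ribosome biogenesis genes (0.16), 8 cell division genes (0.11), 6 reference genes (-0.01) and FT (-0.55). The chaperone gene GRP7 had a difference of 0.32 (SE 0.57, blocked adjusted p = 0.182), and it increased in both genotypes, by 4.91 in cbfs-1 and 4.59 in wild type. A p above the threshold does not show that these genes responded alike.

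Other genes at the top of the higher group had varied functions. AT1G15830, an uncharacterised gene, stood at 28.0 and 47.1 in cbfs-1, against 16.9 and 10.7 in wild type after 24 h, and between 395 and 521 at 0 h (difference 1.45, SE 0.52, blocked adjusted p = 0.0262), so it was far lower at 24 h in both genotypes. SAG29, a sugar transporter gene of senescence, had a difference of 1.25 (0.000805), the lectin gene AT1G52000 of 1.22 (0.00456), AT2G15980, a tetratricopeptide repeat gene, of 1.19 (0.0137), and the arabinogalactan protein gene AGP22 of 1.29 (0.0378), the last with wild type libraries of 9.52 and 2.92 at 24 h, near the floor. Under the 14 settings with the block AT1G15830 passed 7, AGP22 passed 5, AT2G15980 passed 10 and AT1G52000 passed 12.

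The difference in response has one part at 24 h and one at 0 h, and both use the libraries of the contrast. At 24 h 113 genes were lower (0.552%) and 55 higher (0.269%) in cbfs-1 than in wild type, and with the block 1166 (5.69%) and 1213 (5.92%). At 0 h 5 were lower (0.0244%) and 3 higher (0.0147%), and with the block 50 (0.244%) and 105 (0.513%). The 432 genes with a lower response had a median genotype difference of -0.69 at 24 h and 0.05 at 0 h, and the 279 with a higher response 0.46 and -0.04. In 37 of the lower genes (8.57%) and 19 of the higher genes (6.81%) the gap at 0 h was the larger one, against 39.7% of all tested genes. CBF3 was among them, and so was CWINV5, a cell wall invertase gene, which stood at 89.0 and 77.6 in cbfs-1, against 157 and 140 in wild type before cold, and at 500 and 458 in cbfs-1, against 389 and 386 in wild type after 24 h (difference 1.13, blocked adjusted p = 0.00121).

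A group of targets was low in cbfs-1 before cold as well. COR15A, COR15B, KIN1, KIN2, RD29A and LTI30 were lower at 0 h with the block (differences -1.34, -1.05, -1.59, -1.22, -0.98 and -1.15), and KIN1 and KIN2 also without it (adjusted p = 0.00795 for both). For these genes the difference in response is smaller than the genotype gap at 24 h. GolS3 (0.17, blocked adjusted p = 0.803), SUS1 (0.01, 0.979), CYP79B3 (-0.0036, 0.992) and CYP83B1 (-0.05, 0.822) did not pass at 0 h. By their estimates, most of their difference in response lay at 24 h.

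**Figure D4:**
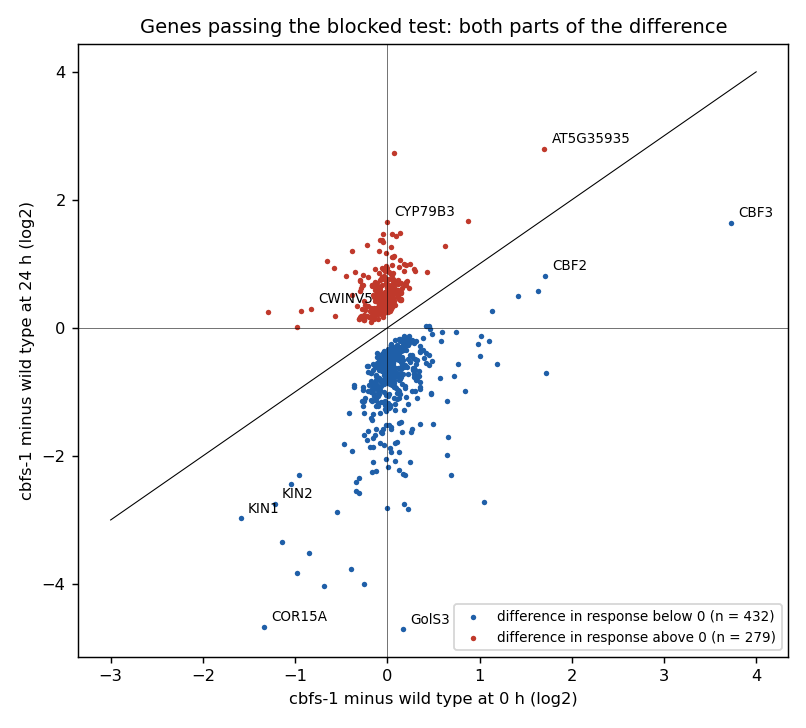
Genotype difference at 24 h (y axis, log2) against that at 0 h (x axis, log2), cbfs-1 minus wild type, for the genes that passed the blocked test, with the line of equal differences. Blue points are the 432 genes with a lower response and lie below the line, and red points are the 279 with a higher response and lie above it. Most points are near 0 on the x axis, KIN1, KIN2 and COR15A were lower at both times, and CBF3 was higher at both.

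The 3 h libraries are not part of the contrast, although they share the estimate of the spread. At 3 h 6 genes were lower (0.0293%) and 0 higher in cbfs-1 than in wild type, with 682 genes at an unadjusted p below 0.05 (3.33%), and with the block 167 were lower (0.816%) and 100 higher (0.488%). Of the 432 genes with a lower 24 h response 332 were below 0 at 3 h (76.9%, against 49.8% of all tested genes) and with the block 78 of the 432 passed as lower and 7 as higher. Of the 279 with a higher response 165 were above 0 (59.1%, against 50.2%) and with the block 6 of the 279 passed as higher and 4 as lower. The 4 lower genes that passed at 3 h without the block were AT4G25433, KIN1, KIN2 and RD29A. KIN2 stood at 1404 and 1379 in cbfs-1, against 5886 and 5046 in wild type at 3 h.

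The leading genes of the higher group did not pass at 3 h. CYP79B3 stood at 1268 and 1274 in cbfs-1, against 1386 and 1400 in wild type at 3 h (-0.13, blocked adjusted p = 0.589). CYP83B1 stood at 4477 and 3994 in cbfs-1, against 4600.5 and 4007 in wild type at 3 h (-0.02, 0.955). DFR (-0.26, 0.295) and LDOX (-0.17, 0.67) did not pass at 3 h either. SUS1 was also close between the genotypes at 3 h (-0.27, 0.143), while GolS3 stood at 159 and 161 in cbfs-1, against 905 and 603 in wild type (-2.20, blocked 8.37e-05). Whether the genotype difference changed between 3 h and 24 h was not tested.

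**Figure D5:**
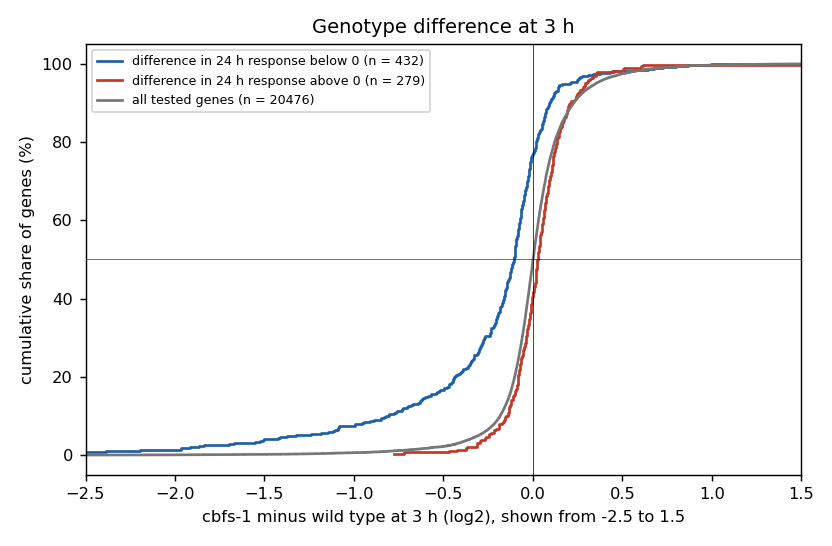
Cumulative share of genes (y axis, percent) by the genotype difference at 3 h, cbfs-1 minus wild type (x axis, log2). The blue line is the 432 genes with a lower 24 h response, the red line the 279 with a higher one and the grey line all 20476 tested genes. The blue line lies to the left, with 76.9% of its genes below 0, and the red line runs close to the grey one.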

How the data were processed

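RNA sequencing of 12 libraries from 14-day-old seedlings was analysed, and the contrast used 8 of them. HTSeq 0.6.0, TopHat2 2.1.0, Cufflinks 2.2.1, DESeq2 and the TAIR10 build are named, per the submitters' processing notes. For the strandedness of counting, the treatment of reads shared by paralogs and all settings, nothing is given in the sources used here. The division of reads is therefore uncertain also between COR15A and COR15B and between CYP79B2 and CYP79B3. The deposited values are a signal, read counts that the authors divided by 1 size factor per library (0.914 to 1.22). Dividing by the smallest step of each library gave whole reads for 100% of the values, within 0.001 of a read.

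Tests used log2(value + 1), a scale that understates changes of low genes, in limma 3.58.1 under R 4.3.3, as a linear fit moderated with a mean trend, with 6 group means over 12 libraries, 6 residual degrees of freedom, and 3 with a replicate block by time. Benjamini-Hochberg adjustment ran over the 20476 genes. edgeR 4.0.16 (quasi-likelihood) and DESeq2 1.42.0 on the recovered reads, other pseudocounts, filters and scalings, and leaving out each library were alternatives. The test was tried on simulated reads. Deviations correlated at 0.046 to 0.0755 between 0 h and 24 h groups, so the block was fitted within each time. Python 3.11.15 with pandas 2.3.3 and numpy 2.4.6 made the tables.

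The members, the 23 gene lists and the tests were chosen with earlier results of these data known. Of 319 list members 9 were left out because symbol and locus were not paired in the RefSeq annotation, and 290 were tested. The rule for named genes took CBF1 to CBF3, up to 15 genes in each direction, up to 4 called members per list and up to 2 that did not pass. The genes of each direction needed a mean of at least 100 in their highest group and the same sign without each library in turn. The rule gives KIN2 and CYP79B3 beside the fixed names, so it was also applied to the blocked calls. These and other genes were named after their values were seen. Gene levels are not given per length and are not compared between genes. Promoters came from TAIR10.1 with its own annotation.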

Additional observations from a re-analysis of the deposited data

Results flagged for a closer look

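CYP79B3 and KIN2 are set out because the effect of 24 h of cold differed between the genotypes by the test of the difference itself. The difference was 1.66 for CYP79B3 (adjusted p = 0.00503) and -1.53 for KIN2 (adjusted p = 0.0322, limma without a block).

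AT5G23950, a gene of a calcium-dependent lipid-binding family, UF3GT and AT4G14090 are set out because all libraries of one genotype moved one way and all of the other the opposite way. AT5G23950 stood at 19.4 and 20.8 in cbfs-1, against 150 and 70.2 in wild type after 24 h, and at 31.0 and 30.3 in cbfs-1, against 15.3 and 22.8 in wild type at 0 h. Its difference was -2.98 (adjusted p = 0.138, blocked 0.00131). UF3GT had a difference of 1.35 (adjusted p = 0.896, blocked 0.00792) and AT4G14090 one of 1.58 (adjusted p = 0.196, blocked 5.53e-05). These genes passed the test of the difference with the block and not without it.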

How the results depend on the processing

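Without a block the counts of lower and higher genes were 1 and 1, and they were the same with edgeR, TMM or upper-quartile factors, pseudocounts of 0.5 and 8, no filter, a filter at 50 and a filter over 12 libraries. They were 65 and 19 with DESeq2, 0 and 0 in the 8 libraries alone (928 genes at an unadjusted p below 0.05), 0 and 1 without the trend (1063), and 0 to 49 lower and 0 to 5 higher when each library was left out, the 49 without wild type 24 h replicate 2. With 1 replicate term over all libraries they were 57 and 15. With the replicate block by time they were 432 and 279, and 342 and 197 in the 8 libraries alone. The alternatives chosen after seeing the data gave, with this block, 440 and 258 with TMM factors, 424 and 318 with upper-quartile factors, 448 and 292 with a pseudocount of 8, 449 and 254 with edgeR, and 234 to 638 and 108 to 331 when each library was left out, where the partner of the library no longer informs the difference. For the genotype differences themselves, the block moved the lower and higher counts to 1166 and 1213 (24 h), 50 and 105 (0 h), and 167 and 100 (3 h). The cause of these moves was not tested.

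Over 84 genes and 34 settings the direction turned in 11 of 2856 values, in 5 genes, and 53 genes passed under every setting with the block by time. Most of the 84 genes were chosen because they passed the blocked test. The top genes of each direction were also chosen for keeping their sign without each library in turn. These counts therefore describe chosen genes and do not measure how stable the results are. CBF1 turned to -0.02 in the blocked fit without either replicate 1 library at 0 h (-0.0186 both times) and to -0.26 without wild type 24 h replicate 2, in a range up to 1.34. CBF2 turned to 0.59 without wild type 0 h replicate 2 and to 0.24 without cbfs-1 0 h replicate 1 (lowest -2.39), and ZAT10 to 0.32 and 8.77e-05 without the same libraries (lowest -2.05). ERF6 turned to -0.03 without wild type 0 h replicate 1 and to -0.18 without cbfs-1 0 h replicate 2 (highest 1.603), and EXPA1 to -0.12 without wild type 24 h replicate 1 and to -0.05 without cbfs-1 24 h replicate 2 (highest 0.87). With 2 libraries per group, the blocked fit rests on 3 residual degrees of freedom, and at 3 reads or fewer no difference is detectable.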

Other observations

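Some neighbours of the targets moved against them. AT5G15980 lies 318 bases from KIN2 on the same strand and stood at 772 and 794 in cbfs-1, against 396 and 435 in wild type after 24 h, and between 459 and 588 at 0 h (difference 1.05, SE 0.19, adjusted p = 0.16, blocked 5.13e-05), while KIN2 had a difference of -1.53. AT2G15980 ends 156 bases from the end of COR413-PM1 on the opposite strand and had a difference of 1.19, against -2.07 for COR413-PM1. By contrast, AT4G25433, with a difference of -3.38, lies 13301 bases from CBF2, and both had a difference below 0. The strandedness of the counting is not given, and its part in these values was not tested. These genes were chosen after their values were seen.

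SOT16, a sulfotransferase gene of the last step of the glucosinolate core and outside the list, stood at 1574 and 1469 in cbfs-1, against 827 and 961 in wild type after 24 h, and between 1357 and 1576 at 0 h (difference 0.80, blocked adjusted p = 0.000488).

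ARP9, an actin-related protein gene, stood at 169 and 186 in cbfs-1, against 599 and 615 in wild type after 24 h, and at 258 and 205 in cbfs-1, against 647 and 660 in wild type at 0 h. Its difference in response was -0.27 (SE 0.20, blocked adjusted p = 0.42). It was chosen after its values were seen.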
